A study of Rattus norvegicus with 6 samples.

Results

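The accessible sites (ACS) of 10 families of solute carriers were described in rat islets, namely the families Slc1, Slc2, Slc3, Slc5, Slc6, Slc7, Slc16, Slc36, Slc38 and Slc43, whose best known members carry sugars, amino acids and monocarboxylates across membranes. An ACS was a member when the gene named beside it in the deposited table, the nearest one, had a symbol starting with one of these family names. *Slc2a2* and *Slc16a1* were left out by the rule. This gave 476 of the 101603 distinct ACS, near 89 of the 14776 genes of the table. One symbol, *Slc7a6os*, is not a transporter but the gene on the opposite strand of *Slc7a6*, and its 3 ACS, none called, were kept under the rule. The nearest gene is a label of position and was not shown to be controlled by the site.

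Solute carriers of these families supply cells with fuel and building blocks. In islets, glucose enters the beta cell through facilitative transporters of the Slc2 family, amino acids such as leucine, glutamine and arginine act on hormone release after uptake by Slc1, Slc7 and Slc38 carriers, and the Slc3 proteins are the heavy chains that bring several Slc7 transporters to the membrane. Several Slc16 proteins carry lactate, pyruvate and related monocarboxylates with protons. Slc5 and Slc6 proteins use the sodium gradient to take up sugars, choline, neurotransmitters and amino acids.

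Chromatin accessibility was measured by ATAC-seq, in which the Tn5 transposase inserts adapters into open DNA, to compare islets before and after maturation. The adult group held 3 libraries, each from the dissociated islet cells of 1 male Sprague-Dawley rat, numbered 4, 5 and 6. The group at postnatal day 10 (P10) held 3 libraries, numbered 1, 2 and 3, from pups of 3 litters, a few pups mixed for each, and the pups of the study were of both sexes. No rat carried a transgene or a treatment, and age, sex, the way of digesting the pancreas and single against pooled animals cannot be told apart in this design.

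The libraries held 7916919 to 11903909 integrations in ACS in adults and 13491534 to 21168463 at P10, of which 31503 to 93505 fell in the transporter ACS (0.398% to 0.442% of a library). Replicates differed by more than counting error over the ACS (chi-square per degree of freedom 3.35 to 7.81), and p-values measure the spread between these samples. Islets hold several cell types and were not sorted, so fewer cells of a type and less open chromatin per cell cannot be told apart. Summed depth-scaled counts (CPM) at the ACS of 6 alpha cell marker genes were 944 to 1080 in adults and 812 to 902 at P10 (22 of 117 ACS Up, 6 Down). At 7 endothelial genes the sums were 404 to 490 and 369 to 388 (10 Up, 1 Down of 58), at 4 duct genes 244 to 277 and 212 to 236 (4 Up, 5 Down of 38), and at 3 Schwann and glial genes 10.7 to 14.1 and 17.2 to 18.7 (0 Up, 1 Down of 5). Beta cell genes gave 789 to 964 in adults and 793 to 1020 at P10 (11 Up, 13 Down of 84), and acinar genes 507 to 541 and 508 to 518 (5 Up, 11 Down of 83). Mesenchymal and stellate (7 Up, 5 Down of 62), immune (1 and 1 of 11), delta and PP (1 and 3 of 13) and proliferation genes (3 and 0 of 20) made up the other lists. No ACS was listed for 14 of the markers, among them *Mafa*, *G6pc2*, *Ppy*, *Krt7*, *Acta2*, *Sox10* and *Mki67*. The part of cell composition in the transporter results was not tested.

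Values are given as CPM, in which the integrations of an ACS are scaled to the sum over all ACS of the library, itself corrected by a TMM factor (trimmed mean of M values), in the order adult 4, 5 and 6, then P10 1, 2 and 3. Differences were tested with edgeR's quasi-likelihood test on the counts of all 101603 ACS, with Benjamini-Hochberg adjustment over all of them. A positive log2 fold change means more integrations in adults. An ACS was called Up or Down at an unadjusted p-value under 0.05 and a false discovery rate (FDR) under 0.2, the limits of the study.

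Transporter ACS were called in both directions, at shares near those of the whole table. In adults 51 of the 476 ACS were Up and 41 were Down, which is 10.7% and 8.61% of the members, against 12.3% Up and 6.63% Down of all ACS. The median log2 fold change was -0.06 for transporter ACS and -0.0076 for all ACS. Groups did not overlap, with every adult library above every P10 library, at 54 ACS (11.3%, against 13.8% of all ACS), and lay the other way round at 65 (13.7%, against 10.9%). The 51 Up ACS lay near 32 genes, with a median log2 fold change of 0.88, and the 41 Down ACS near 27 genes, with a median of -0.93. Of the 92 calls, 42 were made in each of the 6 fits that left out 1 library. The same count over all ACS is not given here. Without P10 replicate 2 the counts fell to 32 Up (6.72%, against 7.85% of all ACS) and 26 Down (5.46%, against 3.23%). Without P10 replicate 1 they were 68 Up (14.3%, against 12.8% of all ACS) and 34 Down (7.14%, against 6.78%). Scaling by plain column sums, which lowered the median of all ACS to -0.10, turned the split to 44 Up and 57 Down, so that 43.6% of the called transporter ACS were Up instead of 55.4%, while the share over all called ACS went from 65% to 49.3%. Down calls also outnumbered Up calls with cyclic loess scaling (43 Up, 49 Down), with a mean count of at least 50 (38 and 39) and without adult replicate 4 (34 and 38). Over all ACS, Up calls were more frequent than Down calls in each of these settings. The shares over all ACS were 10.9% Up and 8.96% Down, 15.4% and 11.8%, and 9.56% and 5.37%, in this order. With the total reads of each library as its size, which moved the median of all ACS to -0.84, 23 of the 51 Up ACS and 7 of the 8 genes Up by sum changed sign.

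The balance of calls varied by family, as the plot by family shows. Slc36, the proton-coupled amino acid transporters, had 6 Up and 1 Down of 15 ACS, and Slc7, the cationic and large neutral amino acid transporters, had 13 Up and 3 Down of 83. Slc16, the family of the monocarboxylate transporters and related carriers, had 5 Up and 1 Down of 57. Of these, *Slc16a10* had 2 Up, *Slc16a7* and *Slc16a14* 1 Up each, and *Slc16a12* 1 Up and 1 Down. Slc1, the glutamate and neutral amino acid carriers, had 5 Up and 10 Down of 92, Slc5 had 4 Up and 6 Down of 33, and Slc43 had 0 Up and 2 Down of 10. Calls were near balance in Slc2, the facilitative sugar transporters (6 Up, 4 Down of 48), in Slc6, which carries neurotransmitters, creatine and amino acids (9 and 9 of 78), and in Slc38, the glutamine family (3 and 5 of 56). None of the 4 ACS of the heavy chains *Slc3a1* and *Slc3a2* was called, with log2 fold changes of -0.36 to 0.10. ACS of 1 gene share a locus and are not independent, and differences between families were not tested.

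**Figure D1:**
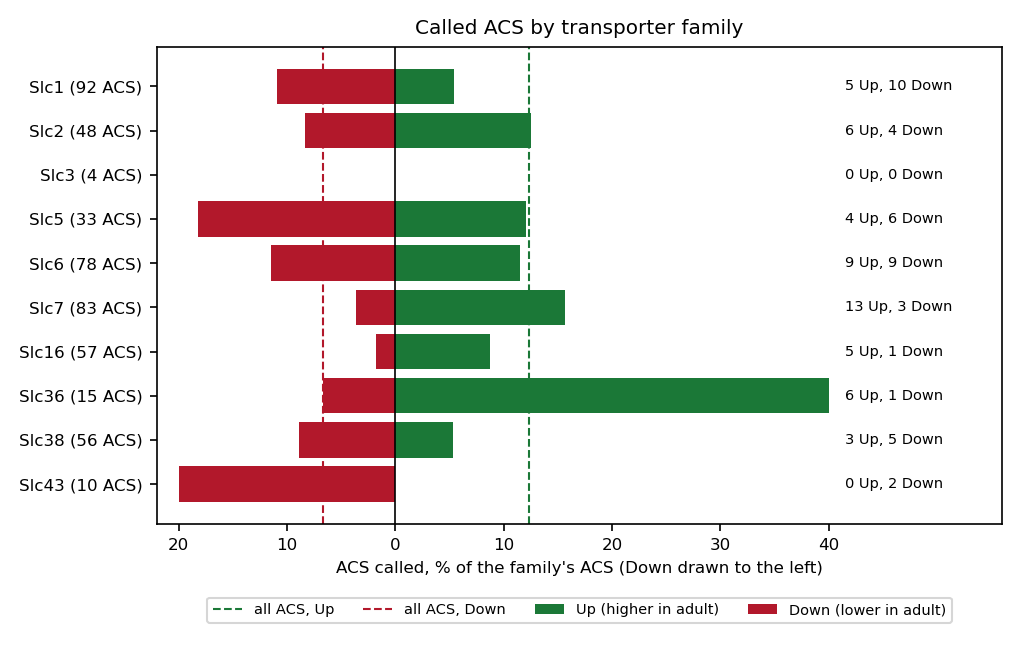
Called ACS per transporter family, as a percentage of the family's ACS (x axis, Up to the right, Down to the left), with the numbers of calls beside the bars; dashed lines mark 12.3% Up and 6.63% Down of all ACS. Slc36 reaches 40% Up from 15 ACS, and Slc43 has no Up call.

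No ACS at a gene start was called Up. The deposited table places an ACS in the TSS class within about 1 kb of the start of its gene, in the proximal class up to about 10 kb and in the distal class beyond. Of the 67 TSS-class ACS, at 52 genes, 0 were Up and 9 were Down (13.4%), against 2.73% Up and 7.87% Down of all TSS-class ACS by the same edgeR test. Only 1 TSS-class ACS (1.49%) had all adult libraries above all P10 libraries, while 16 (23.9%) lay the other way round. Over ACS of all classes these shares were 13.8% and 10.9%, and those over all TSS-class ACS were not computed. The single TSS-class ACS with higher adult libraries was that of the urate transporter *Slc2a9*, named for this reason. Its log2 fold change was 0.25 (edgeR adjusted p = 0.472). Proximal ACS gave 10 Up and 5 Down of 59 (background 11.2% and 6.71%), and distal ACS 41 Up and 27 Down of 350 (background 13.8% and 6.45%). TSS-class ACS held 22.2% to 23.4% of the transporter integrations in adult libraries and 24.7% to 25.6% in P10 libraries, with no overlap of the groups. The same share over the whole table was not computed. There too TSS-class ACS lay lower, with a median log2 fold change of -0.103 against 0.0199 for distal ACS. Among transporters these medians were -0.219 and -0.0343.

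Genes with an ACS at the start had more CpG there than genes without one, whether or not the ACS was called. Promoter sequences came from RefSeq on GRCr8, since the Rn5 genome of the table was not used here, with windows from 250 bases before to 50 after the start, and 68 of the 89 genes matched. The 39 matched genes with a TSS-class ACS had a median of 21 CpG per window (range 3 to 42), and the 29 without one had a median of 6 (range 0 to 30). All promoters had a median of 7. The 5 matched genes with a Down start had 12 to 35 CpG, and the 34 whose start ACS was not called had a median of 20. Shown here are the windows of 3 genes whose Down ACS overlapped the start or lay close to it, of *Slc1a4*, the start with the most CPM per kb in the list of known transporters, which was not called, and of *Slc7a12*, a gene with no start ACS, chosen after its value was seen. CpG dinucleotides are in capitals.
*Slc5a7* (chr9:7953460-7953759, minus strand): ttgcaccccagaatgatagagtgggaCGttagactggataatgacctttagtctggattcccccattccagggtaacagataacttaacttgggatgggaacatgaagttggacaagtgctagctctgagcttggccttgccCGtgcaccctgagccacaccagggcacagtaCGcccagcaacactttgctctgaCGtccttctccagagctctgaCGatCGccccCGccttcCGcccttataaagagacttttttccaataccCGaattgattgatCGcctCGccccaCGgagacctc
*Slc1a6* (chr7:11520958-11521257, minus strand): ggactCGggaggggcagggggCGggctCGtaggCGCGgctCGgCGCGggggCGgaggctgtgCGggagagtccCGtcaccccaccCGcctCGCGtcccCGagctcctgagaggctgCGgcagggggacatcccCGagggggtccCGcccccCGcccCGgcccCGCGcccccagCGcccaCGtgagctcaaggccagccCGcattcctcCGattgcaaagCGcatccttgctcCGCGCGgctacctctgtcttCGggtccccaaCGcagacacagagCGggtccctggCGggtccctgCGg
*Slc5a8* (chr7:25160030-25160329, plus strand): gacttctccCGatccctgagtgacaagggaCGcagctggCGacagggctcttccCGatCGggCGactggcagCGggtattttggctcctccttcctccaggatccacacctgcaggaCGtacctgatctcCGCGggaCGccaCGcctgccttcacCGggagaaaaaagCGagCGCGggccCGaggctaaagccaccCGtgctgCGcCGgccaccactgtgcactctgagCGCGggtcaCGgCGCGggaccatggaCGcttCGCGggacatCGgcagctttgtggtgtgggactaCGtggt
*Slc1a4* (chr14:98761513-98761812, minus strand): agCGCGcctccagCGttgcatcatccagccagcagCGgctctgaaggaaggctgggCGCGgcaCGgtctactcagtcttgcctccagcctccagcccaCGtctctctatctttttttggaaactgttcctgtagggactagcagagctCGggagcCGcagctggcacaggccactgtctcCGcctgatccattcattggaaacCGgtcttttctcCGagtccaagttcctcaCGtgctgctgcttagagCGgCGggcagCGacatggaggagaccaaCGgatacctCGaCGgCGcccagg
*Slc7a12* (chr2:88868054-88868353, minus strand): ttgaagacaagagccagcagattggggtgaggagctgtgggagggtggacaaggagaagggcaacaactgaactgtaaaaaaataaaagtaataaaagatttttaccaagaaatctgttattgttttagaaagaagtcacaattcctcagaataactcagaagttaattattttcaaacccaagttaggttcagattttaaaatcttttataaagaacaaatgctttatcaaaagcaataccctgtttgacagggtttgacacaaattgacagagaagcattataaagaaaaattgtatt
The 5 windows held 12, 35, 30, 21 and 0 CpG in this order. The windows of all promoters covered 27457 genes, including genes with no ACS. Transporter windows held a median of 12 CpG and 57.0% GC, against 7 and 52.3% over all promoters. Shares of motifs, of which GGGCGG and CACGTG contain CG, were not matched for CpG or tested. The GC box GGGCGG, read on both strands, was present in 42.6% of transporter windows and 34.9% of all promoters. The window of *Slc1a6* had 4 copies and that of *Slc5a7* had 1. The E-box CACGTG was found in 14.7% of transporter windows and 6.65% of all, including those of *Slc1a6* and *Slc1a4*, and the E-box CAGGTG in 29.4% and 18.7%, including that of *Slc5a8*. TGANTCA was present in 14.7% and 7.33%, TATAAA in 13.2% and 14.3%, CCAAT in 32.4% and 37.7%, and TGATGNAAT in 0% and 1.05%. TATAAA occurred 3 times in the window of *Slc7a12* and once in that of *Slc5a7*.

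The 9 Down ACS at gene starts belonged to 7 genes. *Slc5a7*, the high-affinity choline transporter of cholinergic neurons, had the Down start with the smallest p-value. The ACS over its start (chr9:4379278-4379873, Rn5) had 2.17, 3.51 and 2.32 CPM in adults and 5.11, 7.06 and 8.88 CPM at P10. All adult libraries lay below all P10 libraries, and the log2 fold change was -1.39 (SE 0.31, edgeR adjusted p = 0.00393). *Slc6a15*, a carrier of proline and branched-chain amino acids, had 3 adjacent TSS-class ACS, all Down. The one 0.04 kb inside the gene (chr7:45349034-45349558) had 1.45, 2.63 and 2.84 CPM in adults and 6.04, 5.71 and 5.92 at P10, a log2 fold change of -1.37 (SE 0.32, edgeR adjusted p = 0.00503). Its neighbours had log2 fold changes of -1.06 (SE 0.28, edgeR adjusted p = 0.0149) and -0.85 (SE 0.28, edgeR adjusted p = 0.0558), again without overlap.

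The glutamate transporter gene *Slc1a6* had its Down ACS 0.155 kb upstream of the start (chr7:13921981-13922287), with 1.45, 0.88 and 1.42 CPM in adults and 2.37, 3.57 and 3.81 CPM at P10. The log2 fold change was -1.38 (SE 0.39, edgeR adjusted p = 0.0214). At the start of *Slc2a10*, a facilitative glucose transporter, adults had 1.27, 1.07 and 1.16 CPM and P10 2.23, 2.64 and 2.22 CPM, without overlap (log2 fold change -1.01, SE 0.39, edgeR adjusted p = 0.112). The start of *Slc5a8*, a sodium-coupled carrier of lactate and short-chain fatty acids, was Down by -0.79 on the log2 scale (SE 0.33, edgeR adjusted p = 0.145), but adult replicate 5, at 7.60 CPM, lay above 2 of the P10 libraries, and the call was made in 2 of the 6 fits without a library. The creatine transporter *Slc6a8* (-0.57, SE 0.22) and the amino acid transporter *Slc43a2* (-0.76, SE 0.31) completed the list, with calls in 3 and 1 of these 6 fits. The table placed *Slc6a8* on chromosome 1 of Rn5 and RefSeq places it on chromosome X, so the position of its single ACS is uncertain.

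Most starts of well-known transporters were open at both ages and were not called. Of 26 listed genes, 21 had a TSS-class ACS, and the one with the most counts at each had a log2 fold change between -0.38 and 0.22. The start of *Slc1a4*, a neutral amino acid transporter, had 68.7 CPM per kb in adults and 67.0 CPM per kb at P10, a log2 fold change of 0.04 (SE 0.15, edgeR adjusted p = 0.933). By adult level the starts of the cationic amino acid transporter *Slc7a1* (40.3 and 38.6 CPM per kb), the cystine and glutamate exchanger *Slc7a11* (33.6 and 28.8), the aromatic amino acid transporter *Slc16a10* (33.1 and 31.5) and the heavy chain *Slc3a2* (32.4 and 39.8) followed. At none of these did the ages differ beyond the limits of the test. At the glucose transporter *Slc2a1* the start had 25.0 CPM per kb in adults and 29.4 at P10, and at the insulin-responsive *Slc2a4* 7.36 and 8.99. The lactate exporter *Slc16a3* had 17.4 and 19.2 CPM per kb, and the sodium-coupled glucose transporter *Slc5a1* 6.55 and 8.45. No TSS-class ACS was listed for *Slc2a3*, *Slc7a8*, *Slc6a4*, *Slc38a5* or *Slc38a9*.

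Distal sites near *Slc7a11* and *Slc5a8* rose most. Sites named for the smallest p-values were taken only from ACS whose adult and P10 libraries did not overlap. An ACS inside *Slc7a11*, 40.4 kb from its start (chr2:158964249-158964665), had 14.2, 15.2 and 21.4 CPM in adults and 3.25, 4.49 and 3.28 CPM at P10. The groups lay far apart, with a log2 fold change of 2.21 (SE 0.25, edgeR adjusted p = 1.72e-06), the highest among the transporter ACS. A second ACS of this gene, 12.0 kb upstream (chr2:159016580-159017195), had 28.8, 36.03 and 33.9 CPM in adults and 15.5, 19.3 and 15.9 at P10 (log2 fold change 0.96, SE 0.18, edgeR adjusted p = 0.000875). The lowest log2 fold change also belonged to an ACS whose nearest gene was *Slc7a11*, 237 kb downstream, with 0.36, 0.39 and 0.77 CPM in adults and 1.81, 4.07 and 1.96 at P10 (-2.38, SE 0.50, edgeR adjusted p = 0.00216). Adult levels there were near 0, and no adult library reached the lowest P10 library. With 4 Up and 1 Down of 20 ACS, the sum over the gene had a log2 fold change of 0.26 (SE 0.12, edgeR adjusted p over 14776 genes = 0.238).

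Near *Slc5a8*, a pair of ACS 251 and 258 kb downstream rose while the start fell. The first (chr7:29789073-29789677) had 31.1, 23.1 and 28.4 CPM in adults and 6.79, 8.77 and 9.20 CPM at P10, a log2 fold change of 1.74 (SE 0.21, edgeR adjusted p = 3.49e-06). The second (chr7:29795990-29796438) had 40.8, 28.6 and 42.0 CPM against 20.8, 14.1 and 16.8 (log2 fold change 1.10, SE 0.20, edgeR adjusted p = 0.00039). Separate adult and P10 groups were a condition for naming both sites.

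Other Up sites with the smallest p-values lay near carriers of glutamate and neutral amino acids. The glial glutamate transporter *Slc1a3* had an ACS 804 kb upstream with 22.1, 27.95 and 20.2 CPM in adults and 8.41, 8.77 and 12.2 CPM at P10 (log2 fold change 1.26, SE 0.22, edgeR adjusted p = 0.000262). Inside *Slc7a5*, the large neutral amino acid transporter LAT1, an ACS 19.0 kb from the start had 12.2, 9.54 and 8.12 CPM against 4.65, 2.28 and 2.49 (log2 fold change 1.65, SE 0.29, edgeR adjusted p = 0.000399). The start of *Slc7a5* itself had 15.97 ± 1.88 CPM in adults and 16.7 ± 2.49 at P10 (SD, n = 3 each) and was not called. On chromosome X, 551 kb upstream of the broad amino acid transporter *Slc6a14*, adults had 10.48, 11.9 and 13.8 CPM and P10 4.70, 6.21 and 5.60 CPM (log2 fold change 1.13, SE 0.24, edgeR adjusted p = 0.0026). The Up sites of this paragraph were named only where the ages did not overlap, so their separation was fixed by that choice. The 21 transporter ACS on chromosome X, where the sexes of the groups differ, held 1 Up and 2 Down calls.

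The strongest Down sites away from starts had few integrations in adults. An ACS 17.7 kb upstream of *Slc43a3*, a purine nucleobase carrier, had 2.53, 2.63 and 2.58 CPM in adults and 7.90, 8.49 and 5.76 CPM at P10 (log2 fold change -1.51, SE 0.29, edgeR adjusted p = 0.000994). Upstream of the glutamine carrier *Slc38a2*, at 124 kb, adults had 1.81, 0.88 and 0.64 CPM and P10 3.95, 3.85 and 3.07 CPM (log2 fold change -1.65, SE 0.40, edgeR adjusted p = 0.00659). Within the glutamate transporter *Slc1a7*, 38.2 kb from the start, the values were 1.27, 2.24 and 1.81 CPM against 4.70, 3.64 and 4.44 (-1.27, SE 0.34, edgeR adjusted p = 0.0163). Separate groups were a condition for naming all 3. Further sites inside genes, at *Slc38a3*, a glutamine transporter, and *Slc2a13*, a proton-coupled inositol transporter, fell by 1.15 and 1.98 on the log2 scale (edgeR adjusted p = 0.0298 and 0.0299). The last had only 0, 0.88 and 0.39 CPM in adults. All 19 ACS shown for the smallest p-values were called in each fit that left out 1 library.

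**Figure D2:**
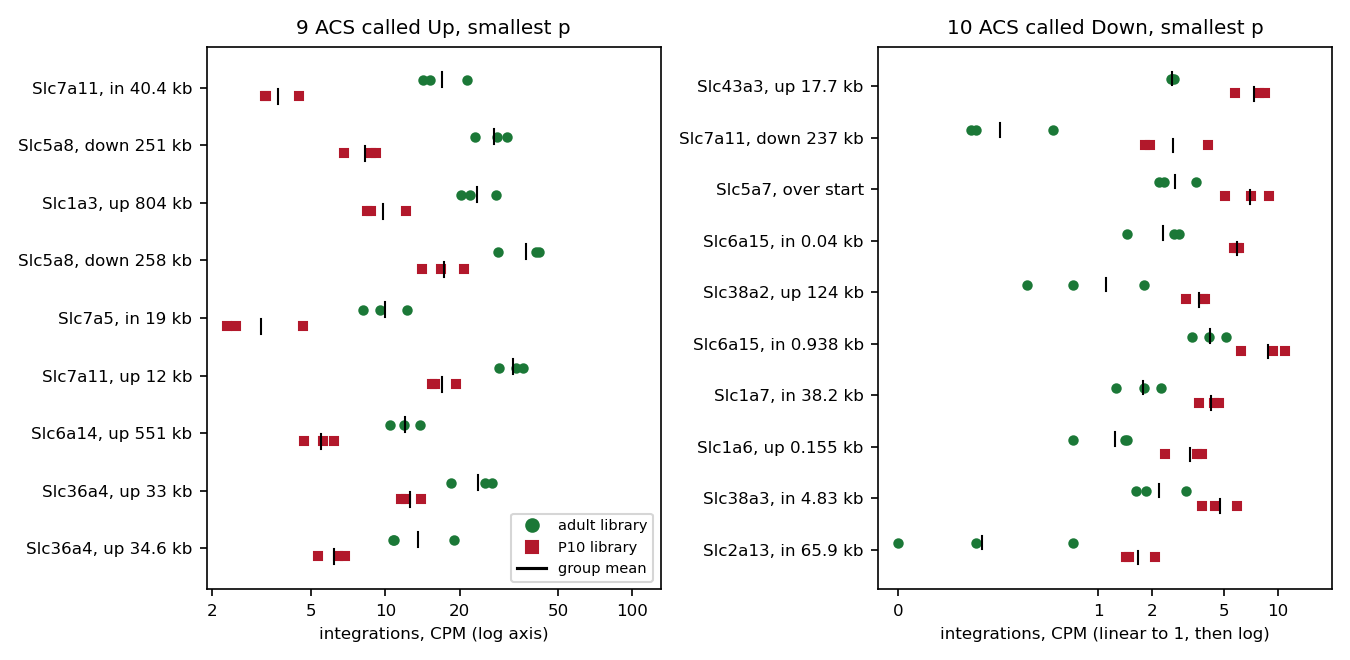
Integrations in CPM (x axis) in each library for 9 Up and 10 Down transporter ACS chosen by the smallest p-values and no overlap, named by gene, position (up, upstream; down, downstream; in, inside; over start) and distance from the gene start; circles are adult libraries, squares P10 libraries and vertical lines group means. Adult libraries lie to the right of P10 libraries in all 9 Up rows and to the left in all 10 Down rows, and the Down sites stay under about 11 CPM.

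Called sites were spread over loci in different ways. Of the 89 genes, 49 had a called ACS, 22 of them only Up, 17 only Down and 10 both, and 40 had none. Over all 14776 genes, which also had a median of 3 ACS, 48.9% had a called ACS, 20.7% only Up, 13.8% only Down and 14.4% both. *Slc36a4*, a lysosomal and plasma membrane carrier of proline and tryptophan, had 5 Up of 8 ACS, from 34.6 kb upstream to 3.45 kb inside the gene. The ACS at 33.0 kb upstream had 27.1, 18.5 and 25.4 CPM in adults and 12.1, 11.6 and 13.96 CPM at P10 (log2 fold change 0.91, SE 0.20, edgeR adjusted p = 0.00394). Its neighbour at 34.6 kb had 19.0, 10.7 and 10.8 CPM against 6.88, 6.42 and 5.34 (log2 fold change 1.13, SE 0.25, edgeR adjusted p = 0.00417). The remaining 3 Up sites rose by 0.58 to 0.73 on the log2 scale, while the start had a log2 fold change of -0.05. The related lysosomal transporter *Slc36a1* had an Up site inside the gene (1.46, SE 0.33, edgeR adjusted p = 0.00469) and a Down site 62.7 kb downstream (-0.93, SE 0.42, edgeR adjusted p = 0.186).

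The urate transporter *Slc2a9* had 3 Up of 7 ACS (log2 fold changes 0.68 to 0.71), and *Slc6a5*, the neuronal glycine transporter GlyT2, had 3 Up of 7, the farthest 74.1 kb upstream with 11.6, 9.64 and 7.48 CPM in adults and 6.14, 4.14 and 4.55 at P10. *Slc2a10* had 3 Down of 5, at the start, inside and downstream. The glutamate transporter *Slc1a1* had 4 Down of 28 ACS, all upstream between 116 and 394 kb, of which the nearest had 15.3, 15.6 and 9.93 CPM in adults and 31.2, 19.0 and 18.2 at P10 (log2 fold change -0.74, SE 0.23, edgeR adjusted p = 0.0384). Its start, with a log2 fold change of -0.22, was not called.

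Calls of both directions met at *Slc1a3*, the gene with the most ACS, where 3 of 38 were Up and 3 Down. The Down sites lay 39.8 to 80.5 kb upstream (log2 fold changes -1.29, -0.87 and -1.14), and the Up sites 149 kb downstream (0.93) and about 804 kb upstream (1.10 and 1.26). *Slc6a15* paired its 3 Down starts and a Down site 185 kb upstream with an Up site 416 kb downstream, which had 10.0, 6.04 and 6.45 CPM in adults and 3.30, 3.78 and 3.33 at P10 (log2 fold change 1.12, SE 0.28, edgeR adjusted p = 0.0102). *Slc5a7* had an Up site 107 kb downstream (0.80, SE 0.27) besides its Down start and a Down site 531 kb upstream. The creatine carrier *Slc16a12* had an Up site 25.4 kb upstream (0.58, SE 0.17, edgeR adjusted p = 0.0307) and a Down site 57.2 kb upstream (-0.60, SE 0.21, edgeR adjusted p = 0.0698). *Slc2a13*, *Slc6a19*, the intestinal and renal neutral amino acid transporter, and *Slc7a14* each had 1 Up and 1 Down.

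**Figure D3:**
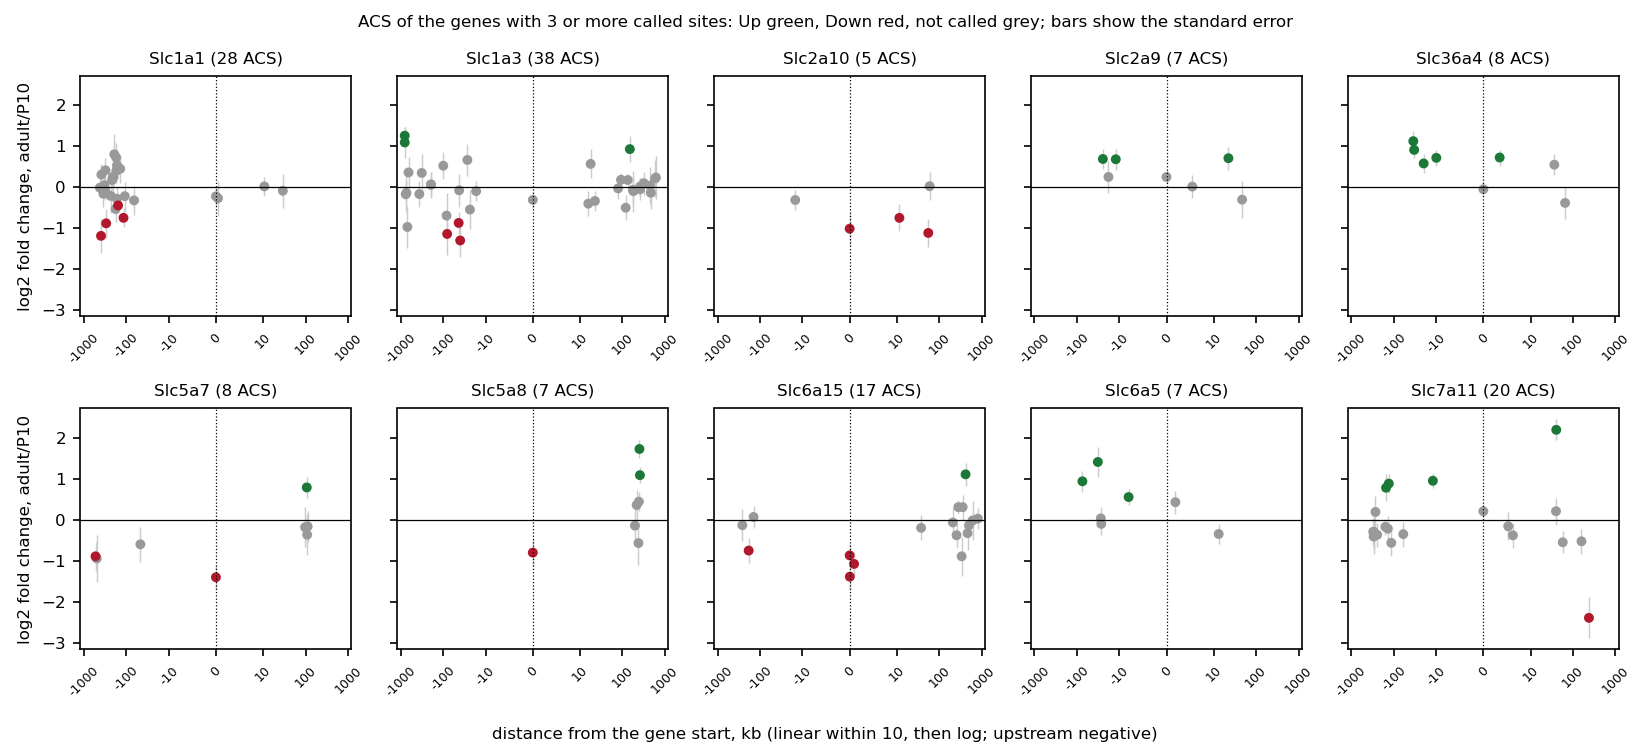
Log2 fold change, adult over P10 (y axis), of every ACS of the 10 genes with 3 or more called sites, against its distance from the gene start in kb (x axis, linear within 10 kb and logarithmic beyond, upstream negative); bars are standard errors, and green, red and grey mark Up, Down and not called. *Slc36a4*, *Slc2a9* and *Slc6a5* hold only Up calls, *Slc1a1* and *Slc2a10* only Down calls, and the other 5 genes both.

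Of the genes with the most ACS in each of the 10 families, 5 had 3 or more calls (*Slc1a3*, *Slc7a11*, *Slc6a15*, *Slc36a4* and *Slc5a7*), 4 had 1 or 2 and 1 had none. Chosen by number of ACS, up to 38 against a median of 3 per gene, they had more sites that could be called. The share among all genes with as many ACS was not computed. *Slc16a7*, the pyruvate and lactate transporter MCT2, had 1 Up of 18 ACS, 42.8 kb inside the gene, with 10.6 CPM as the adult mean and 4.95 at P10 (log2 fold change 1.11, SE 0.25, edgeR adjusted p = 0.00458). *Slc38a4* had 2 Up of 15, with log2 fold changes of 0.58 and 1.01, and *Slc43a2* 1 Down of 4. Of the genes with no call, named after their counts were seen, the taurine transporter *Slc6a6* had 9 ACS, *Slc2a12* 8, *Slc7a1* 7 and *Slc2a1* 5.

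To compare whole genes, the integrations of all ACS of a gene were summed and tested over 14776 genes with the same limits. Of the 89 genes 8 were Up and 8 Down, against 8.71% Up and 4.64% Down of all genes. The sum for *Slc5a8* was 91.9, 76.2 and 91.7 CPM in adults and 49.3, 44.7 and 46.8 CPM at P10 (log2 fold change 0.88, SE 0.13, edgeR adjusted p = 0.000526). It included the 2 Up sites 251 and 258 kb downstream, with means of 27.5 and 37.1 CPM in adults and 8.25 and 17.2 at P10. The sum and those site calls thus share counts. For *Slc36a4* the sum was 163, 124 and 150 CPM against 98.5, 96.3 and 107 (0.54, SE 0.13, edgeR adjusted p = 0.0172). Both genes showed no overlap of the groups. *Slc6a5* (0.40), *Slc2a9* (0.37), *Slc7a12*, an amino acid transporter (0.79), *Slc38a9*, the lysosomal arginine sensor (0.49), and the intracellular glucose transporter *Slc2a8* (0.41) were Up at adjusted p-values of 0.1 to 0.2. *Slc38a9* had no called ACS of its own, with all 4 positive.

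Among the genes called by sum, the largest falls were those of the GABA and taurine transporter *Slc6a13* and the mannose and fructose transporter *Slc5a10*, which had few integrations. *Slc6a13* had 2.26, 2.44 and 2.97 CPM in adults and 4.32, 7.63 and 5.87 at P10 over its 2 ACS, both Down (log2 fold change -1.22, SE 0.32, edgeR adjusted p = 0.0288). The single ACS of *Slc5a10* had 1.54, 1.85 and 2.06 CPM against 4.79, 4.35 and 2.96 (-1.16, SE 0.34, edgeR adjusted p = 0.0542). Groups did not overlap in either. *Slc1a6* (-0.58), *Slc43a3* (-0.63), the glutamine transporter *Slc38a5* on chromosome X (-0.43), *Slc2a10* (-0.53), *Slc6a8* (-0.57) and *Slc1a7* (-0.60) were Down as well. Of the genes named here, *Slc5a8*, *Slc36a4* and *Slc5a10* were called in all 6 fits that left out 1 library. Without P10 replicate 2 the counts were 3 Up and 2 Down, and without adult replicate 4 they were 4 and 5. Without adult replicate 6 there were 4 Down, and without P10 replicate 1 there were 15 Up. The shares over all genes in these fits are not given here.

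**Figure D4:**
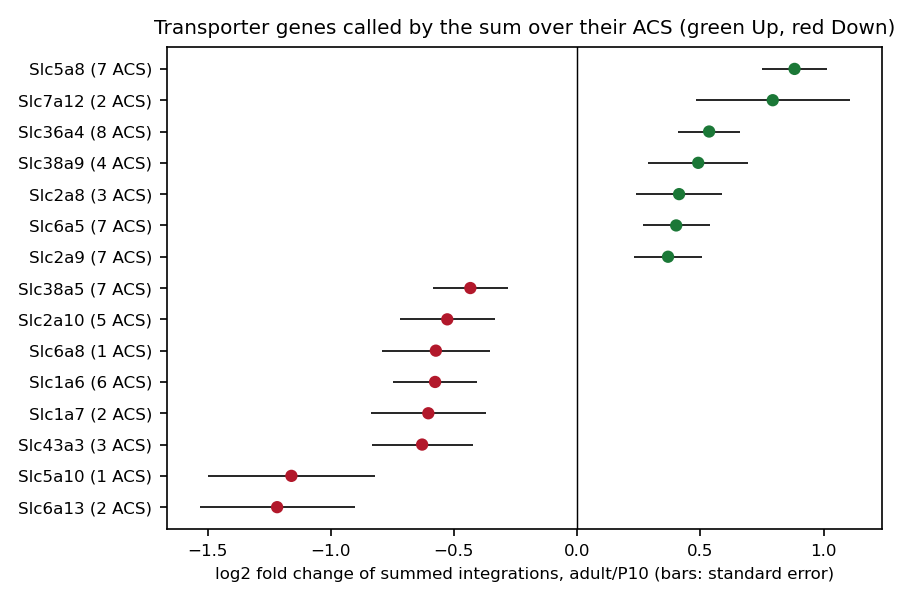
Log2 fold change, adult over P10, of the integrations summed over all ACS of a gene (x axis) for 15 of the transporter genes called by this sum, with bars for the standard error and the number of ACS in brackets. The 7 Up genes shown lie between 0.37 and 0.88, and the 8 Down genes between -0.43 and -1.22.

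Whether the start of a gene moved apart from its other sites was tested as a ratio within each gene, for the 46 transporter genes with both kinds of ACS. The start fell relative to the other sites in 9 genes and rose in 0, against 24.4% and 4.62% of the 7568 genes tested by limma on the log2 ratios per library with the same limits. The log2 ratio change was negative in 34 of the 46, with a median of -0.18 against -0.154 for all genes. For *Slc6a15* the starts held 8.31, 13.5 and 12.4 CPM in adults and 18.3, 26.8 and 25.6 at P10, while its other ACS held 134, 115 and 127 against 99.1, 119 and 143 CPM. The change in the log2 ratio was -1.10 (SE 0.18, limma adjusted p = 0.000867). In *Slc5a8* the start fell against other sites that held 89.6, 68.6 and 88.3 CPM in adults and 42.3, 37.9 and 37.7 at P10 (-1.91, SE 0.34, limma adjusted p = 0.00125). These other sites included the pair of Up sites far downstream already described. In *Slc5a7* the start fell while the other sites held 18.0, 20.9 and 13.4 CPM in adults and 13.6, 19.8 and 18.9 at P10 (-1.24, SE 0.28, limma adjusted p = 0.00572).

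In *Slc36a4* the start held 30.1, 28.1 and 35.96 CPM in adults and 30.2, 30.4 and 36.4 at P10, and the other sites 133, 96.0 and 115 against 68.3, 65.9 and 70.4 CPM. There the ratio changed by -0.77 (SE 0.14, limma adjusted p = 0.00184). *Slc2a8* (-1.07, SE 0.23, limma adjusted p = 0.0047) and *Slc1a3* (-0.42, SE 0.12, limma adjusted p = 0.0227) also changed in all 6 fits without a library. *Slc16a14*, an orphan of its family (-0.83), *Slc7a5* (-0.59) and *Slc38a1*, a glutamine transporter (-0.56), were called in 5, 4 and 0 of them. The ratios of adult and P10 libraries did not overlap in these genes except *Slc7a5*.

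**Figure D5:**
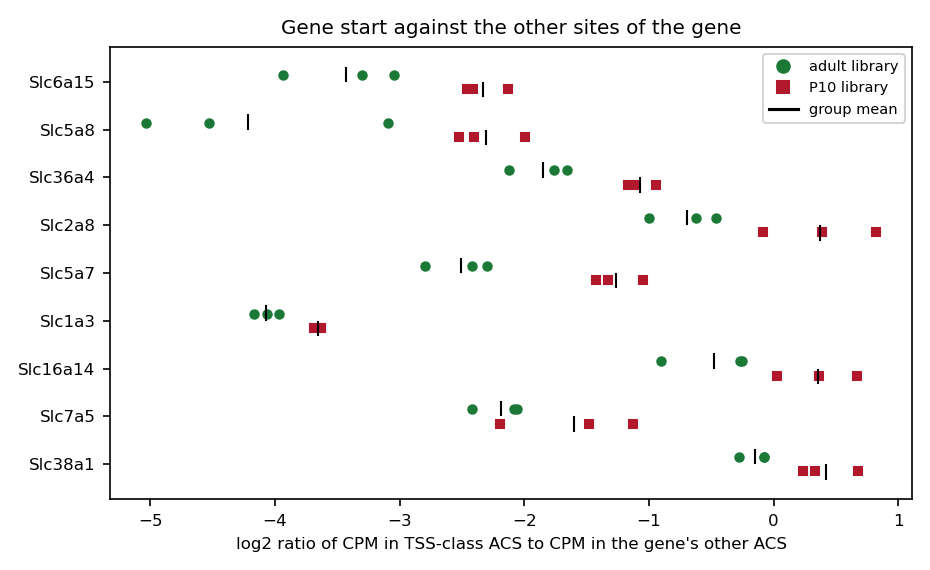
Log2 ratio of CPM in the TSS-class ACS of a gene to CPM in its other ACS (x axis), in each library, for the 9 genes whose ratio differed between ages; circles are adult libraries, squares P10 libraries and lines group means. Adult libraries lie to the left of all P10 libraries in every gene but *Slc7a5*.

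Genes that work with these transporters were counted from a list of 35 gene symbols of partners and regulators, of which 28 had ACS. Of their 268 ACS, 40 were Up (14.9%, against 12.3% of all ACS) and 14 were Down (5.22%, against 6.63%). By sum 4 of the 28 genes were Up and 1 Down, with 8.71% and 4.64% over all genes. Named after their calls by summed integrations were seen, *Sgk1*, a kinase that raises the surface level of several carriers, was Up (log2 fold change 0.49, edgeR adjusted p = 0.0474, 11 of 31 ACS Up), as were the ubiquitin ligase *Nedd4l* (0.43, edgeR adjusted p = 0.0666), *Asns*, which makes asparagine (0.32, edgeR adjusted p = 0.158), and *Rragd*, a GTPase of amino acid sensing (0.41, edgeR adjusted p = 0.151). *Txnip*, which lowers glucose uptake, was Down, with 15.7 ± 0.259 CPM in adults and 23.6 ± 2.90 at P10 (SD, n = 3 each, log2 fold change -0.59, edgeR adjusted p = 0.0762). The chaperones of the monocarboxylate transporters, *Bsg* and *Emb*, had log2 fold changes of -0.10 and 0.08 and were not called. The 33 ACS of *Slc2a2* and *Slc16a1*, which the rule left out, held 7 Up (21.2%, against 12.3% of all ACS) and 4 Down (12.1%, against 6.63%). *Slc2a2* had 6 Up and 0 Down of 21, and *Slc16a1* had 1 Up and 4 Down of 12.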

How the data were processed

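ATAC-seq was performed on 3 adult and 3 P10 islet libraries. The authors aligned reads to Rn5 with BWA 0.7.13, processed alignments with SAMtools 1.3, discarded mitochondrial and low-quality reads, called peaks with MACS2 2.1.1 on the pooled samples of each age, merged both sets and counted Tn5 integrations with pyDNase. The deposited table holds raw whole-number counts per ACS and library (all 6 columns used), the nearest gene and its position. It also holds the authors' own log2 fold change, abundance, F, p-value and FDR, which were not used. Whether PCR duplicates were removed is not given in the sources used here. Low counts, chiefly in the shallower adult libraries, carry more relative counting error, and the errors given cover only what the counts contain.

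Of 101941 entries, 338 repeat an ACS, and each of the 101603 ACS entered once, without a filter. Groups came from the sample labels. Counts were scaled by TMM and tested with the quasi-likelihood test of edgeR 4.0.16 in R 4.3.3, with age as the only term and Benjamini-Hochberg adjustment over all features, for ACS and for sums per gene. Standard errors are the size of the unshrunk log2 fold change over the square root of the F statistic. Start against other ACS of a gene was tested with limma 3.58.1 (trend, empirical Bayes) on the log2 ratio per library of CPM plus 0.5 in both parts. Alternatives were limma voom, DESeq2 1.42.0, other scalings and filters, a stricter limit and leaving out each library.

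The members, lists and rules were chosen with earlier results of these data known. The rule named 10 Up and 10 Down ACS, those of smallest p-value without overlap of the groups (9 and 10 are reported), genes with 3 or more called ACS or with calls in both directions, genes called by sum or ratio, the start ACS with the most counts of 26 listed transporters, and the gene with the most ACS in each family. The marker lists and the list of partners and regulators served as counts. Some results for single genes are not reported here, but all members stand in the counts. The tests were checked on simulated counts. Sequences of ACS were not analysed here. Promoters were RefSeq windows on GRCr8, the first listed where a gene had several. Python 3.11.15 and matplotlib 3.10.9 were used for the figures.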

Additional observations from a re-analysis of the deposited data

How the results depend on the processing

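No paired analysis was possible, since the adult rats and the pups were different animals and no pairing between them is given. The labels share no replicate numbers either (4 to 6 in adults, 1 to 3 at P10). The main counts were 51 Up and 41 Down ACS, 8 Up and 8 Down genes by sum, and 9 genes with start against other. With total reads as library sizes there were 3 Up and 321 Down ACS (0.63% and 67.4%), against 1.05% Up and 60.7% Down of all ACS. This scaling shifted the median of all ACS to -0.84 and that of transporter ACS to -0.89. By sum it gave 0 genes Up and 74 Down, and the shares over all genes are not given here. At an FDR under 0.05 there were 30 Up and 16 Down ACS (6.3% and 3.36%, against 7.06% and 1.91% of all ACS). By sum there were 3 Up genes and 1 Down gene at this limit. Column sums gave 17 Down genes by sum. Leaving out 1 library gave 32 to 68 Up ACS (6.72% to 14.3%) and 26 to 42 Down ACS (5.46% to 8.82%). Over all ACS these fits called 7.85% to 13% Up and 3.23% to 7.1% Down. Among transporter genes they gave 3 to 15 Up genes, 2 to 9 Down genes and 6 to 10 genes with start against other. The other settings kept these counts within 1.5 times (limma voom 52 Up and 40 Down ACS, DESeq2 48 and 38). The causes were not tested. Adult libraries held fewer integrations in ACS than P10 libraries.

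With total reads, 182 of the 476 transporter ACS changed sign, among them 23 called Up and 0 called Down, as did 7 of the 8 Up genes by sum. With column sums or cyclic loess no called ACS changed sign. Of the 9 Up, 10 Down and 21 start ACS followed through every setting, those that turned were starts with a log2 fold change between -0.13 and 0.22. Total reads turned the starts of *Slc16a7* to -0.61, *Slc16a10* to -0.76, *Slc7a1* to -0.79, *Slc7a11* to -0.61, *Slc1a4* to -0.82, *Slc1a5* to -0.77, *Slc6a6* to -0.81 and *Slc36a1* to -0.83. Starts turned with column sums at *Slc16a10* (-0.021), *Slc7a1* (-0.026), *Slc1a4* (-0.060), *Slc1a5* (-0.026), *Slc6a6* (-0.037) and *Slc36a1* (-0.077), with cyclic loess at *Slc16a10* (-0.032), *Slc7a1* (-0.10), *Slc1a5* (-0.075), *Slc6a6* (-0.035) and *Slc36a1* (-0.11), and with a mean of at least 50 at *Slc16a10* (-0.014), *Slc7a1* (-0.015), *Slc1a4* (-0.051), *Slc1a5* (-0.016), *Slc6a6* (-0.025) and *Slc36a1* (-0.067). Leaving out 1 library gave ranges across 0 at the starts of *Slc16a10* (-0.016 to 0.14), *Slc16a3* (-0.28 to 0.11), *Slc1a4* (-0.031 to 0.12), *Slc1a5* (-0.053 to 0.14), *Slc36a1* (-0.12 to 0.096), *Slc36a4* (-0.15 to 0.038), *Slc43a2* (-0.21 to 0.20), *Slc6a6* (-0.056 to 0.19), *Slc7a1* (-0.12 to 0.35) and *Slc7a5* (-0.17 to 0.042).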
